A study of Mus musculus with 3 samples.

Results

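The expression of xenobiotic metabolism genes was compared between the epithelial cell types of the mouse small intestine and between 3 single-cell RNA libraries. Members were taken by gene symbol from the cytochrome P450 families *Cyp2*, *Cyp3* and *Cyp4*, the glutathione S-transferases *Gsta*, *Gstk*, *Gstm*, *Gsto*, *Gstp* and *Gstt*, the UDP-glucuronosyltransferases *Ugt1* and *Ugt2*, the carboxylesterases *Ces1* and *Ces2*, the sulfotransferases *Sult1*, the alcohol dehydrogenases *Adh*, and the retinaldehyde dehydrogenases *Aldh1a*. Of the 27998 genes in the files, 150 matched, and 79 of these had at least 100 UMIs (unique molecular identifiers, 1 per captured RNA molecule) over the libraries. Altogether 13787 genes reached this limit, and they are called all genes below. The members nearest above the limit were *Cyp2j5* (109 UMIs), *Cyp2c29* (122) and *Cyp2d10* (134), and the genes nearest below it were *Ces1b* (84), *Cyp2f2* (79) and *Ces2d-ps* (69).

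Drugs, plant compounds and dietary toxins are made water-soluble in steps. Cytochromes P450 and alcohol and aldehyde dehydrogenases oxidise them and carboxylesterases split esters, after which transferases attach glutathione, glucuronic acid or sulfate, and pumps export the products. In the gut this chemistry is best known in the absorptive enterocytes of the villus, which meet ingested compounds before the liver does. Several of the same enzymes also act on the body's own substrates, such as retinoids, fatty acids and steroids.

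Each genotype had 1 library, made from EpCAM+ sorted cells of 1 mouse. The antibody binds a membrane protein that marks epithelium. Mice of the C57BL/6 strain had received tamoxifen at 2 mg a dose, for which the labels give 2 doses to every library, the wild type (WT) included. The age given, 7 to 8 weeks, is in the study's methods the age at tamoxifen and not that at sampling. The study's methods state this schedule for the *Apc* fl/fl lines and do not name WT there. *LApc* mice were Lgr5-CreERT2;Apc fl/fl and were taken on day 29, and *LApcL* mice had Lef1 fl/fl in addition and were taken on day 21, as was WT. Apc restrains Wnt signalling and Lef1 is a transcription factor of that pathway. The Cre recombinase was made from the *Lgr5* locus, which crypt stem cells express, and nothing in the files shows which differentiated cells came from recombined stem cells. Genotype, mouse and library cannot be told apart, nor can day for *LApc*, and the methods name kit versions v2 and v3 without saying which library had which. With 1 library a group no test was possible, and all intervals below are 95% intervals that cover counting error only.

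Depth was 140181087 UMIs in WT, 79696291 in *LApc* and 191509615 in *LApcL*, and 10138, 9601 and 14394 cells were kept. *Lef1* had 15, 307 and 579 UMIs and *Apc* 2345, 1884 and 6237 in WT, *LApc* and *LApcL*. The UMIs mark the 3′ end of a transcript, so they do not show whether the floxed exons were lost. Between 214 and 318 cell barcodes were shared by each pair of libraries. In *LApc*, 17.7% of barcodes exceeded the mitochondrial limit of 20%, against 0.541% in WT and 2.38% in *LApcL*, and were left out. Cells were classed from fixed markers after clustering without the members. The classes held 2075 (WT), 2810 (*LApc*) and 1412 (*LApcL*) enterocyte-like cells, 710, 706 and 298 ileal enterocyte-like cells, 2564, 1580 and 979 goblet-like cells, and 3005, 2212 and 1870 crypt-like cells. Paneth-like, enteroendocrine-like and tuft-like classes held between 72 and 511 cells a library. An adenoma-enriched class, of which WT supplied 4 cells, held 1241 cells of *LApc* and 8575 of *LApcL*. The defining enterocyte markers were present, at summed levels in this class of 42740 CPM (WT), 65884 CPM (*LApc*) and 38066 CPM (*LApcL*). CPM are UMI counts of a class and library divided by their total and scaled alike, so that each class and library sums to the same value. Because each molecule is counted once, at its 3′ end, CPM were not divided by gene length.

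In every library the members were most abundant in enterocytes. Their summed level in enterocyte-like cells was 9303 CPM in WT, 9625 in *LApc* and 5594 in *LApcL*. Ileal enterocyte-like cells, marked by the bile acid genes *Fabp6* and *Slc10a2*, had 4479, 4789 and 4717 CPM. Crypt-like cells, the proliferating cells of the crypt, had 2222, 2165 and 1615 CPM, and goblet-like cells had 1614, 1817 and 1301. Both of these classes were lower than either enterocyte class in all 3 libraries. Tuft-like cells had 3368, 4267 and 2664 CPM and enteroendocrine-like cells 2822, 3359 and 2128. Paneth-like cells had the lowest level in each library, at 432, 1630 and 864 CPM, and in this class the Paneth markers alone took 358908 CPM of WT, which lowers the CPM of every other gene there. The enterocyte markers in Paneth-like cells summed to 1237 CPM in WT, 9009 in *LApc* and 1887 in *LApcL*, and their part in the members' levels was not tested.

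**Figure D1:**
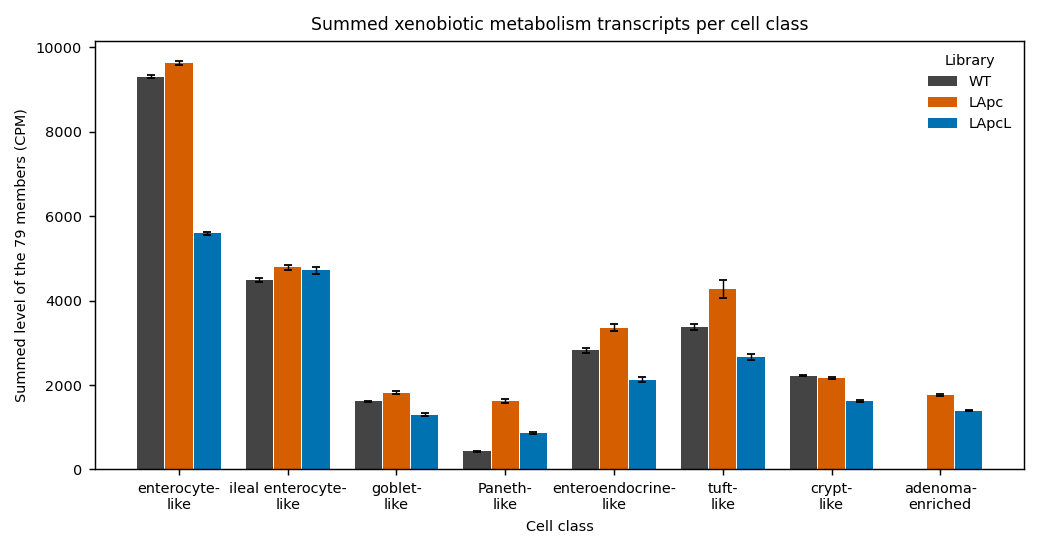
Summed CPM of the 79 members in each cell class (x axis) and library, with bars starting at 0, and with exact Poisson intervals for counting error. The enterocyte-like bar of *LApcL* (5594 CPM) is lower than those of WT (9303) and *LApc* (9625), whereas the ileal enterocyte-like bars lie between 4479 and 4789.

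By gene, 48 of the 79 members (60.8%) had their highest CPM in 1 of the 2 enterocyte classes in all 3 libraries, against 12.8% of all genes. The enterocyte-like class was the highest for 52 members in WT and 50 in *LApc*, but for 29 in *LApcL*, where the ileal class was the highest for 21. Each of the 3 steps of the chemistry was the lowest in *LApcL*. Oxidising enzymes (38 members) reached 3400 CPM in WT, 3996 in *LApc* and 2161 in *LApcL* enterocyte-like cells, and carboxylesterases (10 members) 1471, 1567 and 1090. The conjugating transferases (31 members) reached 4432, 4062 and 2342 CPM.

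The difference between villus and crypt was measured within each library, so that mouse, day and library were shared. A gene was called higher or lower when its CPM changed at least 2-fold after 10 CPM had been added to both sides. In WT, 34 members were higher in enterocyte-like than in crypt-like cells and 0 were lower, where 4.66% of all genes were higher and 4.33% lower. In *LApc*, 35 were higher and 0 lower (5.61% and 6.79% of all genes), and in *LApcL* 27 were higher and 1 lower (4.79% and 3.13%). The median log2 ratio, with 10 CPM added, was 0.81, 0.76 and 0.60 for the members and −0.03, −0.06 and −0.04 for all genes. The single member that was lower was *Cyp2e1* in *LApcL*. Some of the genes that serve the enzymes were also called higher in enterocyte-like cells of WT. In WT, 5 of 12 genes for electron donors and cofactor supply were higher in enterocyte-like cells, such as *Por*, the P450 reductase (99.2 against 31.2 CPM), and *Papss2*, which makes the sulfate donor (422 against 15.7). Of 7 efflux pumps 4 were higher, and of 13 regulators 1 was, the xenobiotic receptor gene *Nr1i3* (54.8 against 9.63 CPM).

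*Gsta1*, a glutathione S-transferase of the alpha class, had the highest level of the members in enterocyte-like cells of WT. It had 1269 CPM in enterocyte-like and 46.6 in crypt-like cells of WT, 1061 and 82.2 in *LApc*, and 323 and 11.8 in *LApcL*. The enterocyte-like level was the higher one in each library, by 27.2-, 12.9- and 27.4-fold. Of the 91-base windows in the last 500 bases of its transcripts, 81.6% also occur in *Gm3776*, a near-identical gene that was not among the genes counted, so the *Gsta1* values may include that copy. *Cyp3a11*, a major drug-oxidising P450, had 159 CPM against 6.99 in WT, 414 against 17.8 in *LApc* and 98.9 against 3.16 in *LApcL*, and all 3 kept *Cyp3* members were called higher in each library. *Cyp2b10*, a P450 that the xenobiotic receptors induce, had 116, 80.7 and 20.4 CPM in enterocyte-like cells and between 0.76 and 3.58 in crypt-like cells. *Gsto1*, an omega-class transferase, behaved otherwise. Its 748, 746 and 695 CPM in enterocyte-like cells stood beside 599, 529 and 453 in crypt-like cells, and it was called in no library. Neither *Gsto* member, *Gstp* member nor *Ugt1* member was called in any library. *Ugt1a1* shared 100% of its 3′ windows with other *Ugt1a* genes, so their counts are uncertain, and the 3 *Ugt1* members together reached only 10.6 CPM in WT enterocyte-like cells.

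**Figure D2:**
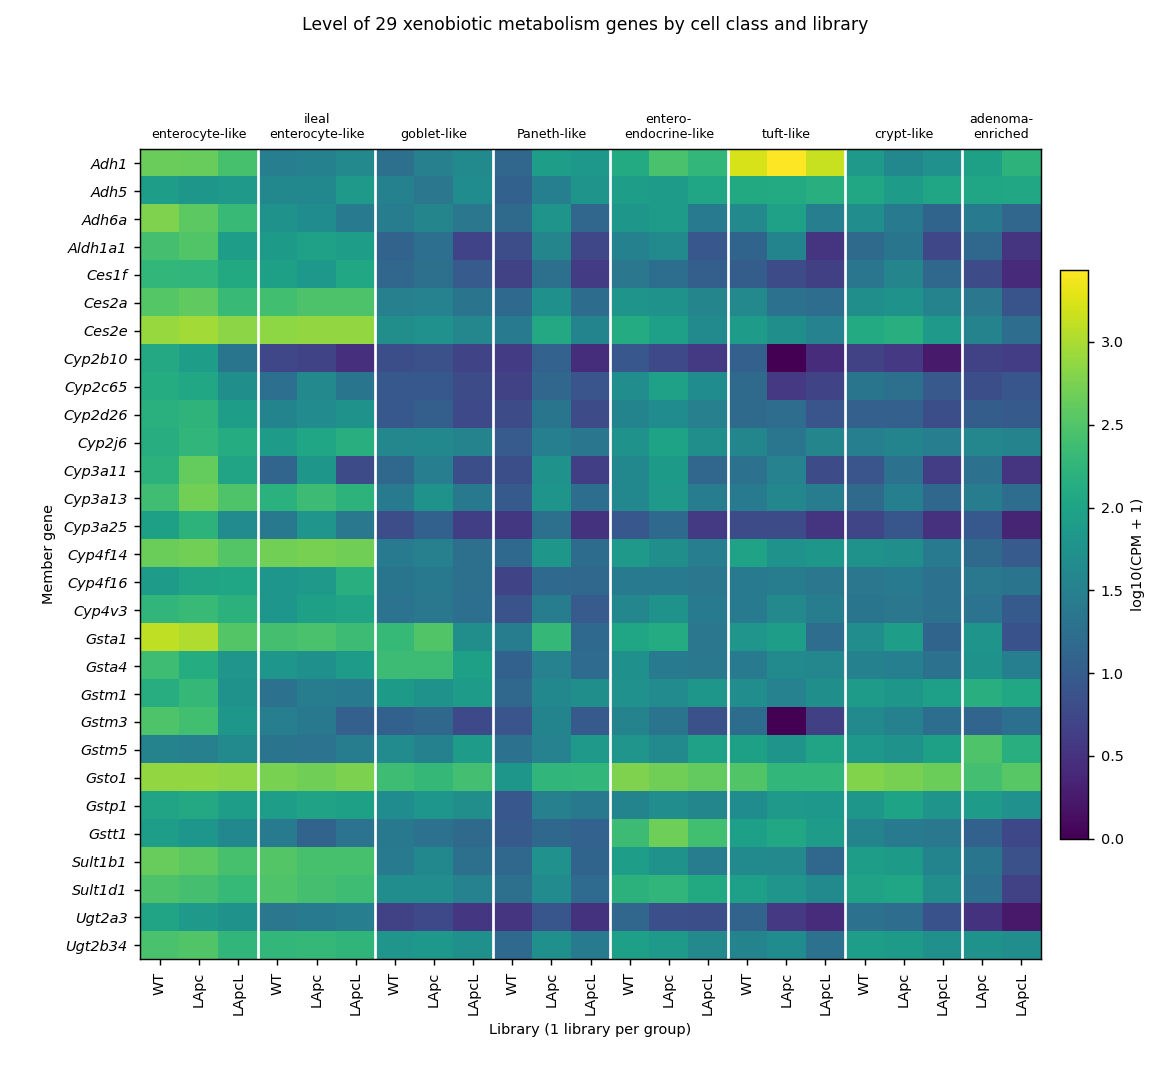
Log10(CPM + 1), as colour, of the 29 members that reached 100 CPM in a class of at least 500 cells, by cell class and library (columns). Most rows are brightest in the enterocyte-like and ileal columns, while *Adh1* is brightest in tuft-like, *Gstt1* in enteroendocrine-like and *Gstm5* in the adenoma-enriched columns of *LApc* and *LApcL*.

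Members whose levels differed most between classes or libraries could be looked up in the RefSeq promoter table of build GRCm38.p6, which held 69 of the 79. The 250 bases before the transcription start are shown for 4 members named in the comparisons, with matches to the searched motifs in capitals. Each of the 4 held a match, so they do not stand for the members as a set.
Cyp3a11 (chr5:145879855-145880104, − strand): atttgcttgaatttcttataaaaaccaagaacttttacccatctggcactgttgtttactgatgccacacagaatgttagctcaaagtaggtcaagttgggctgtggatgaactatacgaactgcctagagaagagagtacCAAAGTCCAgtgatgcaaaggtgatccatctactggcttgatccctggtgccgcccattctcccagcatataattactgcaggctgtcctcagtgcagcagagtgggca
Cyp2b10 (chr7:25897408-25897657, + strand): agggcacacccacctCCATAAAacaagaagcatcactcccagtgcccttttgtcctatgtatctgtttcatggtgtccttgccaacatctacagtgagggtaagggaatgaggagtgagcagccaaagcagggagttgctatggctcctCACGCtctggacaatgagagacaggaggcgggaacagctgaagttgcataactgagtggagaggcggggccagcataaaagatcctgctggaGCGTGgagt
Adh6a (chr3:138313036-138313285, + strand): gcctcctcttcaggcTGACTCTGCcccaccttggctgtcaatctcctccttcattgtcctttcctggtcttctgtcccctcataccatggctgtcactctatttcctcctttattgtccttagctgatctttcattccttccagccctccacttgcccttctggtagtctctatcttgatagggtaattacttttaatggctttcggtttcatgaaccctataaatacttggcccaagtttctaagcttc
Gstm5 (chr3:107895604-107895853, + strand): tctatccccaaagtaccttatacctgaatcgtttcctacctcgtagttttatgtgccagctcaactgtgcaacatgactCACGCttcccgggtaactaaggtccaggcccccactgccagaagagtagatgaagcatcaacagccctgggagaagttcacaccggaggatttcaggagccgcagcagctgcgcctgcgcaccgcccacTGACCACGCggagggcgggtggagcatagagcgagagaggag
Both strands were searched. *Cyp3a11* held an Hnf4 motif (CAAAGTCCA), *Cyp2b10* the core of the xenobiotic response element (GCGTG) at 2 places and a Cdx motif (TTTATGG), *Adh6a* an antioxidant response element (TGACNNNGC), and *Gstm5* that element and 2 xenobiotic response element cores, 1 of which lies within the match to the antioxidant response element. The Tcf/Lef motif CTTTGAT was found in none of the 4 windows. Of the 27025 genes in the promoter table, CTTTGAT was held by 3.72%, TGACNNNGC by 11.5%, CAAAGTCCA by 0.451%, GCGTG by 30.9% and TTTATGG by 2.83%. A gene was counted when any of its windows held the motif. Of the 69 members with a promoter, counted alike, 1, 6, 3, 13 and 3 held them (1.45%, 8.70%, 4.35%, 18.8% and 4.35%). Of the members called lower in *LApcL* than in WT enterocyte-like cells, 9 had a promoter, and 0, 1, 1, 2 and 1 of these held them. A match is a stretch of letters and was not tested as a binding site.

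The first question between libraries was whether the enterocyte level of the members depended on genotype. The 3 comparisons share libraries, so their values are given side by side and are not independent. *LApcL* was the lowest library for 60 of 79 members in enterocyte-like cells (75.9%), where it was the lowest for 23.8% of all genes. With *LApcL* over WT, 11 members were called lower and 0 higher (0.471% and 0.435% of all genes), and with *LApcL* over *LApc*, 12 were lower and 0 higher (0.392% and 0.326%). With *LApc* over WT, 2 were higher, *Cyp3a11* and *Cyp3a13*, and 0 were lower (0.522% and 0.355%). The median log2 ratio with 10 CPM added was −0.24, −0.42 and 0.02 for the members, in this order, and 0.02, 0.03 and −0.01 for all genes. Of the members, 49 had an interval wholly below 0 in *LApcL* over WT and 5 had an interval wholly above 0. Without integration of the libraries before clustering, 21 members were lower in *LApcL* than in WT, and for *LApc* over WT 0 were higher and 5 lower. The class then held unlike mixes of cells, with 871 (WT), 1655 (*LApc*) and 564 (*LApcL*) cells of an *Apoa4*-led cluster and 9, 1882 and 963 of a *Reg3g*-led one, while 1822 WT cells fell in an ileal cluster that had 27 and 26 cells of the other libraries.

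The members lower in *LApcL* than in WT were *Gstm3*, *Cyp2b10*, *Gsta1*, *Gsta4*, *Aldh1a1*, *Cyp2c66*, *Adh6a*, *Ces1d*, *Cyp2c65*, *Gstm1* and *Ugt2b5*. They include glutathione transferases, *Cyp2* oxidases and single members of 4 other families. *Gsta1* had 1269 CPM in WT, 1061 in *LApc* and 323 in *LApcL* (*LApcL* over WT, log2 ratio −1.97, interval −2.02 to −1.93). *Gstm3*, a transferase of the mu class, had 312, 251 and 63.9 CPM (−2.29, −2.39 to −2.18). *Gsta4*, which conjugates products of lipid peroxidation, had 235, 131 and 61.1 CPM (−1.94, −2.06 to −1.83). In all 3 genes *LApcL* was the lowest library, between 3.85- and 4.88-fold below WT.

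Among the oxidising enzymes, *Cyp2b10*, whose promoter is printed above, had 116, 80.7 and 20.4 CPM in WT, *LApc* and *LApcL* (−2.50, −2.69 to −2.31). *Aldh1a1*, which turns retinaldehyde into retinoic acid, had 265, 321 and 80.7 CPM (−1.71, −1.81 to −1.62). *Adh6a*, an alcohol dehydrogenase gene near *Adh1* on chromosome 3, had 581, 365 and 213 CPM (−1.45, −1.51 to −1.39). *LApcL* was the lowest for each, and for *Adh6a* *LApc* also lay below WT. *Cyp2c65* (131, 111 and 49.99 CPM) and *Cyp2c66* (37.3, 34.1 and 6.57), both P450s of the arachidonic acid-metabolising *Cyp2c* cluster, had WT and *LApc* close together and *LApcL* below both. The carboxylesterase gene *Ces1d* had 27.9, 10.6 and 4.87 CPM, the mu-class transferase *Gstm1* 136, 193 and 55.7, and the glucuronosyltransferase *Ugt2b5* 37.8, 39.8 and 13.1.

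*Cyp3a11* set *LApc* apart from both other libraries. It had 159 CPM in WT, 414 in *LApc* and 98.9 in *LApcL*, a log2 ratio of 1.39 (1.33 to 1.44) for *LApc* over WT and −2.07 (−2.16 to −1.98) for *LApcL* over *LApc*. *Cyp3a13* had 237, 497 and 308 CPM and *Cyp3a25* 87.5, 163 and 44.7, so that *LApc* was the highest library for all 3 *Cyp3* members. Without integration, the ratios with 10 CPM added for *LApc* over WT turned to −0.17 for *Cyp3a11* and −0.04 for *Cyp3a13*, in the unlike cell mixes given above. The villus tip genes were also highest in *LApc*, at a summed level of 3294 CPM in WT, 9433 in *LApc* and 5148 in *LApcL* enterocyte-like cells. In *LApcL* they stood above WT, as did *Cyp3a13*, whereas *Cyp3a11* and *Cyp3a25* stood below it. Their part in the *Cyp3* levels was not tested.

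By family, the sum of the *Gsta* members was 1521 CPM in WT, 1227 in *LApc* and 400 in *LApcL*, 3.80-fold lower in *LApcL* than in WT. The *Aldh1a* sum was 291, 360 and 93.8 CPM (3.10-fold) and the *Gstm* sum 615, 622 and 240 (2.56-fold). *Adh* (1127, 893 and 566 CPM) and *Cyp2* (702, 744 and 389) were lower by 1.99- and 1.80-fold. In these 5 families *LApcL* was the lowest library. The *Ces2* esterases differed less, at 1221, 1347 and 948 CPM, and so did the *Cyp4* fatty acid hydroxylases at 798, 925 and 661. *Gsto* hardly differed, at 748, 746 and 696 CPM. Single members with the opposite order were few. *Cyp4f16*, of the leukotriene-hydroxylating *Cyp4f* group, had 78.6, 101 and 104 CPM, and *Gstm5* 32.9, 30.3 and 41.4.

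**Figure D3:**
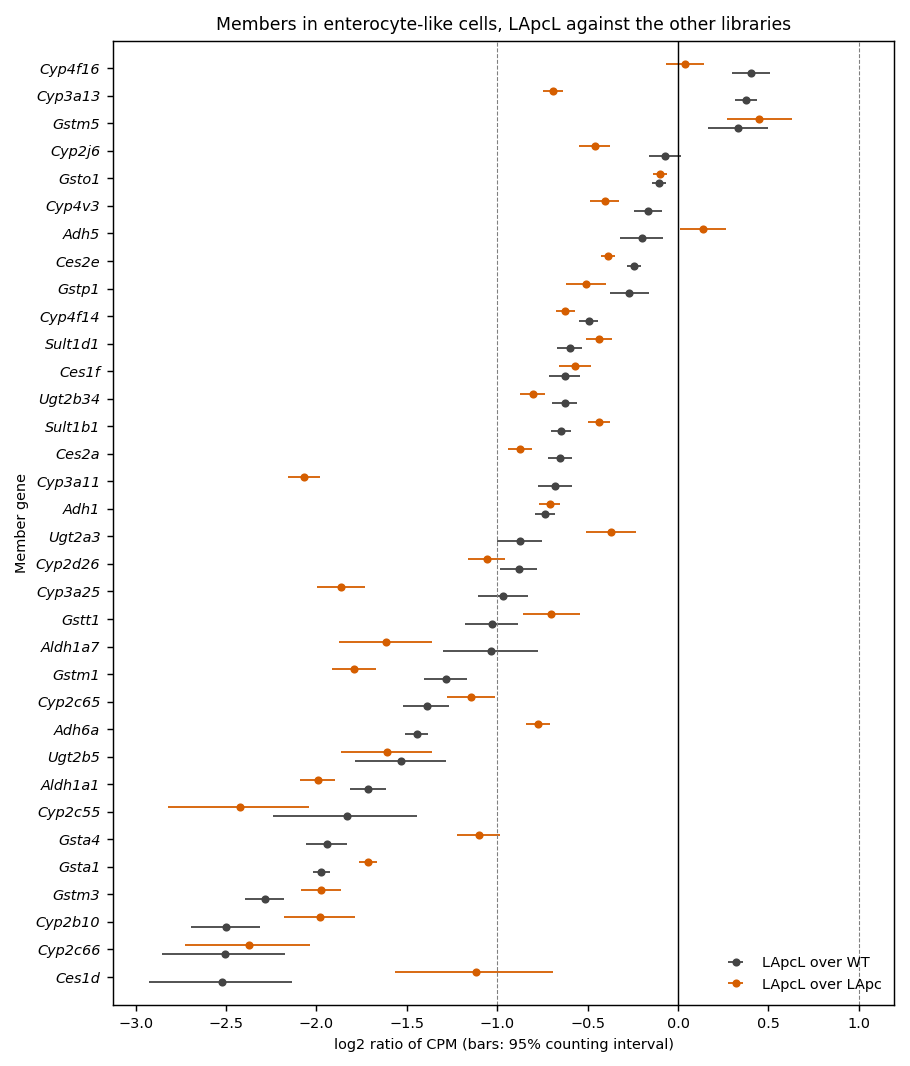
Log2 ratio of CPM in enterocyte-like cells (x axis, nothing added) for *LApcL* over WT (grey) and *LApcL* over *LApc* (orange), with 95% counting intervals as bars and dashed lines at −1 and 1. The rows are the members that reached 100 CPM in a class of at least 500 cells or were called in either comparison, sorted by the ratio to WT, and the points of *Cyp4f16* and *Gstm5* alone lie right of 0 in both comparisons.

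Markers of other cells differed between the libraries too. The summed goblet markers in enterocyte-like cells were 9896 CPM in WT, 4561 in *LApc* and 2691 in *LApcL*. In the same order, the Paneth markers were 4181, 1203 and 1383, the ileal markers 1903, 968 and 489, and the adenoma genes 12.9, 26.4 and 134. Goblet and ileal markers were lower in *LApcL* than in *LApc*, and Paneth markers were not. Of 9 adenoma genes, 4 were called higher in *LApcL* than in WT. The enterocyte markers themselves were lower in *LApcL* (38066 CPM) than in WT (42740), with 1 of 11 called lower. The part of each of these in the members' ratios was not tested. Of the other genes of the pathway in *LApcL* over WT, 0 of 13 regulators, 0 of 12 donor and cofactor genes, 0 of 7 efflux pumps and 0 of 10 Nrf2 targets outside the families were called. Against *LApc*, *LApcL* was lower for *Abcc2*, which exports conjugates (56.6 against 179 CPM), for *Gclc*, which makes glutathione precursors (25.5 against 66.9), and for the heme oxygenase gene *Hmox1* (0.974 against 40.2).

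The enterocyte-like class combined 2 clusters, and the members were lower in both. In cluster 3, led by *Arg2* and *Aadac*, 5 members were called lower in *LApcL* than in WT (0.464% of all genes) and 8 lower than in *LApc* (0.413%). In cluster 4, led by the villus tip gene *Apoa4*, the counts were 19 (0.675%) and 20 (0.493%). *Gsta1*, *Gsta4*, *Gstm3*, *Cyp2b10* and *Adh6a* were called lower than in WT in both clusters. The number of cells was 1220, 1382 and 809 in cluster 3 and 855, 1428 and 603 in cluster 4, so the mix of the 2 differed between libraries.

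The position along the villus was gauged within each library by sorting enterocyte-like cells on 6 villus tip genes and comparing the upper with the lower tertile. In WT, 28 members were higher in the upper tertile and 0 lower (3.84% and 2.14% of all genes). In *LApc*, 15 were higher and 3 lower (5.0% and 5.41%), and in *LApcL* 15 were higher and 4 lower (5.95% and 2.7%). *Cyp3a11* led in each library, with log2 ratios, 10 CPM added, of 4.67, 5.01 and 4.88, and *Cyp2b10*, *Cyp3a13*, *Cyp3a25* and *Cyp4v3* were higher in all 3. *Gsta1* was called in WT, at 2.04, and in neither of the others. The tertiles are ranges of a score, and 350, 394 and 187 cells (WT, *LApc*, *LApcL*) lay within 0.05 of a limit.

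Ileal enterocyte-like cells are the other absorptive class of these libraries. Here, in the integrated classes, the members did not show the low level of *LApcL*. *LApcL* was the lowest library for 17 of 79 members (21.5%, against 23.2% of all genes), and WT was the lowest for 47 (59.5%, against 47.3%, with ties at 0 counted for WT). With *LApcL* over WT, 1 member was higher and 0 lower (0.747% and 0.529% of all genes). The 1 member was *Cyp4f16*, at 62.3, 71.5 and 141 CPM. With *LApc* over WT, *Cyp3a11*, *Cyp2c55* and *Cyp3a25* were higher and 0 members lower (0.392% and 0.406%), and with *LApcL* over *LApc* the same 3 genes were lower and 0 higher (0.21% and 0.305%). *Gsta1* had 265, 276 and 223 CPM and *Aldh1a1* 74.1, 92.3 and 81.2, levels that in WT and *LApc* were far below those of enterocyte-like cells. *Adh6a* was also the lowest in *LApcL* here, at 55.3, 45.4 and 25.4 CPM.

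The ileal class was lower than the enterocyte-like class for 26 members in WT and 26 in *LApc* (1.02% and 1.25% of all genes), but for 7 in *LApcL* (0.558%). Those 7 were *Gstm6*, *Ces2g*, *Cyp2b10*, *Gstm3*, *Adh1*, *Adh6a* and *Cyp3a11*. The summed member level of the 2 classes was 9303 against 4479 CPM in WT and 5594 against 4717 in *LApcL*. Other members were as abundant in ileal cells, such as *Cyp4f14*, which inactivates leukotriene B4 (510, 537 and 485 CPM against 464, 507 and 329), and the esterase *Ces2e* (698, 747 and 761 against 814, 898 and 687). The ileal markers themselves were lower in the ileal class of *LApc* (23276 CPM) and *LApcL* (20835) than in that of WT (61956), and the enterocyte markers were higher there, at 23092 and 18784 CPM against 12706 in WT. The part of either in the members' values was not tested.

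**Figure D4:**
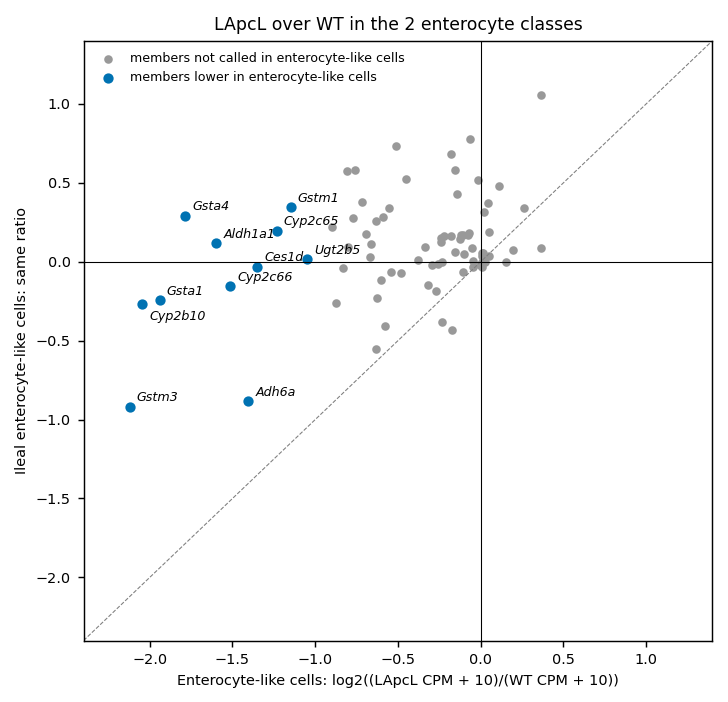
Log2 ratio of *LApcL* over WT with 10 CPM added for each member, in enterocyte-like cells (x axis) and in ileal enterocyte-like cells (y axis), with the members called lower in the enterocyte-like class in blue and named, and a dashed line where both ratios are equal. The named members lie between −1.05 and −2.12 on the x axis, and none of them is at −1 or below on the y axis.

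Crypt-like cells, which hold the stem and transit amplifying cells, also had their lowest member levels in *LApcL*, with fewer members called. *LApcL* was the lowest library for 57 of 79 members (72.2%, against 35.1% of all genes). With *LApcL* over WT, 4 members were lower, *Adh6a*, *Gsta1*, *Sult1b1* and *Gstm3*, and 1 was higher, *Cyp2e1* (0.435% and 0.486% of all genes). With *LApcL* over *LApc*, *Gsta1*, *Aldh1a1* and *Cyp3a11* were lower and *Cyp2e1* was higher (0.239% and 0.261%), and with *LApc* over WT 0 were higher and 0 lower (0.254% and 0.319%). *Gsta1* had 46.6, 82.2 and 11.8 CPM and *Sult1b1*, a sulfotransferase of thyroid hormones and phenols, 84.3, 74.3 and 34.0. Free RNA from enterocytes would be counted in crypt-like cells too. The summed enterocyte markers in crypt-like cells were likewise lowest in *LApcL*, at 2787 CPM in WT, 3998 in *LApc* and 1618 in *LApcL*, and their part in the members' values was not tested. The summed adenoma genes in crypt-like cells were highest in *LApcL*, at 76.5, 90.9 and 341 CPM in the same order. Their part was not tested either. The 11 enterocyte markers stood in crypt-like cells at medians of 6.86%, 5.75% and 3.87% of their enterocyte-like level in WT, *LApc* and *LApcL*, and at most at 26.1%, 20.2% and 21.1%. *Gsta1* stood at 3.67%, 7.74% and 3.65%, below the median in WT and *LApcL*, so its crypt-like level there is at background by this gauge. *Cyp3a11* stood at 4.41%, 4.31% and 3.19%, below the median in all 3 libraries, so its difference between the crypt-like classes is not read as one of crypt cells.

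In goblet-like cells, the mucus-secreting class, 45 of 79 members were lowest in *LApcL* (57.0%, against 19.5% of all genes). *Gsta4* had 225, 224 and 88.2 CPM there against 235, 131 and 61.1 in enterocyte-like cells, close to that level in WT and above it in *LApc* and *LApcL*, and *Gsta1* had 200, 317 and 49.5. Both were called lower in *LApcL* than in WT, and *Cyp2e1* was called higher (0.167% of all genes lower and 0.464% higher). With *LApcL* over *LApc*, *Gsta1*, *Cyp3a11* and *Gsta4* were lower and *Cyp2e1* and *Gstm5* higher (0.283% and 0.508%), and with *LApc* over WT *Cyp2s1* was higher, at 36.6 against 13.2 CPM, and 0 were lower (0.305% and 0.218%). The enterocyte markers in goblet-like cells had medians of 5.81%, 7.61% and 4.34% of their enterocyte-like level. The esterase gene *Ces1c* was the highest in this class in each library, with 10.8, 19.0 and 6.99 CPM against at most 0.346 in enterocyte-like cells.

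*Cyp2e1*, the ethanol- and acetone-oxidising P450, was the only member called higher than in WT in goblet-like and in crypt-like cells of *LApcL*. Counting intervals lay wholly above 0 for 9 members in goblet-like and 8 in crypt-like cells. *Cyp2e1* had 1.63 CPM in WT, 1.58 in *LApc* and 29.4 in *LApcL* goblet-like cells, from 37, 13 and 210 UMIs. In crypt-like cells it had 7.40, 6.12 and 25.3 CPM. *LApcL* was the highest in both classes. Under TMM and median-of-ratios scaling, given below, and without integration, the crypt-like call over WT was lost. The share of goblet-like cells with a *Cyp2e1* UMI was 1.44% in WT, 0.759% in *LApc* and 10.8% in *LApcL*, and the share in tuft-like cells was 1.5%, 1.39% and 2.93%. The median depth was 8544, 5128.5 and 6777 UMIs in goblet-like and 7538.5, 4869 and 5083 in tuft-like cells. In *LApcL*, 90 of the 106 positive goblet-like cells, with 190 of the 210 UMIs, had their highest marker score for Paneth cells. When cells were classed by that score, 0 members were called higher in goblet-like cells of *LApcL* than of WT.

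The remaining secretory classes carried a few members of their own. *Adh1*, the main ethanol- and retinol-oxidising dehydrogenase, was the highest in tuft-like cells, the chemosensory cells of the epithelium, at 1673 CPM in WT, 2719 in *LApc* and 1417 in *LApcL*. It made up 49.7%, 63.7% and 53.2% of the members' UMIs in that class, and it was lower in enterocyte-like cells, at 446, 438 and 268 CPM. *Gstt1*, a theta-class transferase, was the highest in hormone-producing enteroendocrine-like cells, at 222, 481 and 246 CPM against 79.7, 63.4 and 39.0 in enterocyte-like cells. *Cyp2j5* was nearly confined to the enteroendocrine-like class, at 10.8, 20.3 and 8.47 CPM there and at most 0.183 in any other class. *Cyp4b1* was also the highest there in each library, at 65.9, 95.3 and 83.3 CPM.

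Adenoma-enriched cells were compared with crypt-like cells of the same library. The adenoma genes summed to 1630 CPM in adenoma-enriched and 90.9 in crypt-like cells of *LApc*, and to 1082 and 341 in *LApcL*. The part of this adenoma signal in the crypt-like reference was not tested. In *LApc*, 5 members were higher and 10 lower (5.82% and 1.72% of all genes), and in *LApcL* 1 was higher and 7 lower (1.44% and 1.02%). The median log2 ratio with 10 CPM added was −0.10 and −0.09 for the members, against 0.09 and 0.05 for all genes. *Adh1* was the member higher in both, at 88.7 against 39.0 CPM in *LApc* and 165 against 53.3 in *LApcL*. *Gstm5*, a mu-class transferase whose promoter is printed above, had 305 against 54.6 CPM in *LApc* and was called there, and 145 against 88.2 in *LApcL*, where it was not. The others higher in *LApc* were *Gstm7*, *Cyp4b1* and *Gstm1*. TMM scaling lowers each log2 ratio of *LApc* by 0.34, and 1 member is then called higher. *Cyp2a5*, a coumarin-oxidising P450, had 88 UMIs in adenoma-enriched and 0 in crypt-like cells of *LApc*. It was 47.2-fold higher when the 0 was taken as 3 UMIs, without the counting error of the 88, and it was not called.

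The members that were lower in adenoma-enriched cells of both libraries were *Sult1d1*, *Ces2e*, *Sult1b1* and *Ces2a*, which are enterocyte genes of sulfation and ester hydrolysis. *Sult1d1* had 16.8 against 105 CPM in *LApc* and 3.76 against 48.3 in *LApcL*, and *Ces2e* 33.3 against 146 and 15.6 against 70.7. These were falls of 6.21- and 12.9-fold for *Sult1d1*, whose log2 ratio with 10 CPM added was the lowest of the members in each library, at −2.09 and −2.08. *Ces1f*, *Cyp4f14*, *Gstt3*, *Ces1d*, *Ugt2a3* and *Gsto1* were lower in *LApc* only by the call, and *Gstt1*, *Cyp2e1* and *Gstt2* in *LApcL*, and the difference between the libraries was not tested. Enterocyte markers in adenoma-enriched cells had medians of 4.50% and 2.71% of their enterocyte-like level. Among the 13 regulators, *Vdr* and *Nr1h4* were called lower in both libraries, *Vdr* at 11.4 against 129 CPM in *LApc* and 16.1 against 115 in *LApcL*. The retinoid gene *Rdh10*, which makes retinaldehyde and is neither a regulator nor a member, was called higher in both, at 85.3 against 10.1 and 70.5 against 21.0.

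**Figure D5:**
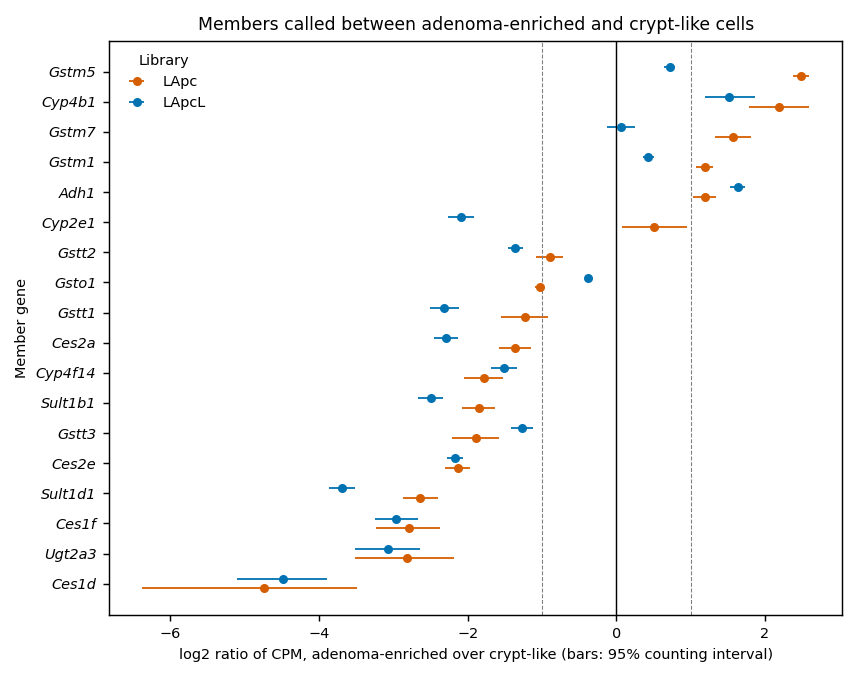
Log2 ratio of CPM in adenoma-enriched over crypt-like cells (x axis, nothing added) in *LApc* (orange) and *LApcL* (blue) for each member called in either library (rows), with 95% counting intervals as bars and dashed lines at −1 and 1. *Adh1* and the less abundant *Cyp4b1* lie right of 1 in both libraries and *Gstm5* in *LApc* alone, and *Ces1d*, at 0.507 and 0.296 CPM in adenoma-enriched cells, lies farthest left.

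Between the libraries, adenoma-enriched cells of *LApcL* had 3 members lower than those of *LApc* and 0 higher (2.33% and 0.181% of all genes). These were *Gsta1* (6.41 against 59.7 CPM), *Cyp3a11* (2.33 against 17.9) and *Gstm5* (145 against 305). The summed enterocyte markers in the class were lower in *LApcL* as well, at 1075 against 3046 CPM. *Cyp3a11* stood at 4.31% of its enterocyte-like level in *LApc* and 2.35% in *LApcL*, below the marker medians of both, and *Gsta1* at 5.62% and 1.98%, below the median in *LApcL*. By this gauge *Cyp3a11* is at background in both libraries, and its difference is not read as one of adenoma cells. *Gsta1* is at background in *LApcL*. In *LApc* it lies above the marker median of 4.50% but within the markers' range of 2.55% to 8.36%, so the gauge cannot decide there. How much of the *Gsta1* difference is free RNA was not tested. The 2 libraries held different states of adenoma cells. A state led by *S100g* had 511 cells of *LApc* and 8482 of *LApcL*, and a state led by *Wfdc18* had 717 and 77. Within the *S100g*-led state, 3 members were lower in *LApcL* (1.05% of all genes), *Gsta1*, *Cyp3a11* and *Ces2a*, and *Gstm5* was not among them. *Vim*, used as a stromal marker, had 194 CPM in the class of *LApc* and 1.28 in that of *LApcL*. The other stromal markers reached at most 1.22 CPM (*Pecam1* in *LApc*), and *Col1a1* and *Col3a1* had none in either library. The 9 immune markers summed to 41.0 CPM in *LApc* and 1.25 in *LApcL*, led by *Lyz2* (16.4 against 0.534) and *Jchain* (14.6 against 0.0858). The part of these transcripts, or of other cells, in the ratios was not tested.

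Across the 7 classes that all libraries held, 5 members (6.33%, against 0.406% of all genes) were the lowest in *LApcL* in every class, *Adh6a*, *Cyp3a11*, *Cyp3a25*, *Gsta1* and *Sult1d1*. Of the others, 3 were the lowest in WT in every class, counting ties at 0 (3.8%, against 5.82%), and 0 were in *LApc* (0.37% of all genes). Fewer transcripts per cell, a different mix of cells within a class and free RNA from enterocytes cannot be told apart in these sums. The classes of a library share its free RNA, so they are not separate observations. Some orders rest on few counts, such as *Cyp3a25* in tuft-like cells, with 12, 2 and 4 UMIs in WT, *LApc* and *LApcL*.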

How the data were processed

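The authors deposited UMI counts per gene and cell barcode, raw and not normalised, made with Cell Ranger 2.1.1 on mm10 (GRCm38). The members and gene lists were chosen with earlier results of these data known. Per the methods of the study, the 1% of barcodes with the most and the 1% with the fewest genes were removed per library. Barcodes over 20% mitochondrial UMIs were removed too. Scrublet (scanpy 1.11.5) stood in for scDblFinder, and because its automatic threshold marked 4 barcodes of *LApc*, the 1023, 1135 and 2326 highest scores were removed from WT, *LApc* and *LApcL* at rates of 9.16%, 10.6% and 13.9%. Kept cells had median depths of 9713, 6132 and 10156 UMIs. Cell annotation of the authors was not used here, so all classes were rebuilt and may differ from theirs.

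Seurat 5.3.0 (R 4.3.3) integrated the libraries by canonical correlation analysis over 911 features, with members and lists left out, and clustered 20 components at resolution 0.2. A cluster was named "X-like" when at least 3 fixed markers were raised 1.5-fold and stood at 10 CPM or more, and 1 cluster (716, 159 and 176 cells) stayed unnamed. These numeric limits were chosen with the clusters in view. Adenoma-enriched clusters were crypt clusters of which WT gave under 10%. Counts were summed per library and class and scaled to CPM, with Poisson intervals computed exactly, and log2 ratios carry exact conditional binomial intervals, and a count of 0 was taken as at most 3. On simulated counts with 200 changed genes among all genes, the call was checked before use. Named with values were members at 100 CPM or more in a class of 500 or more cells, the 5 highest and 5 lowest called members of each comparison, and further members chosen after their values were seen. edgeR 4.0.16 supplied TMM factors. Alternatives were other scalings, class definitions, filters and call limits.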

Additional observations from a re-analysis of the deposited data

How the results depend on the processing

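Under a filter of 1 or of 1000 UMIs and within the *S100g*-led state (chosen after seeing the data), every count of called members stayed within 1.5 times its value. The cause of the changes below was not tested, except that a lower limit or a smaller addition calls more genes by construction. Counts are members higher or lower. No paired analysis was possible because each group had 1 library, and for the same reason no replicate could be left out. Depth limits what can be said of members under 10 CPM, such as the *Ugt1* genes, and of the 72 tuft-like cells of *LApc*.

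With 1 CPM added in place of 10, enterocyte-like over crypt-like gave 53 higher and 2 lower (WT), 2 lower (*LApc*), and 45 higher and 3 lower (*LApcL*). In enterocyte-like cells it gave 4 higher and 1 lower (*LApc* over WT), 1 higher and 17 lower (*LApcL* over WT) and 24 lower (*LApcL* over *LApc*). In goblet-like cells it gave 3 higher, then 3 higher and 5 lower, then 12 lower in the same order, and in crypt-like cells 3 higher, then 2 higher and 16 lower, then 19 lower. Adenoma-enriched over crypt-like gave 10 higher and 28 lower (*LApc*) and 7 higher and 20 lower (*LApcL*), and *LApcL* over *LApc* in adenoma-enriched cells 1 higher and 22 lower.

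With a limit of 1.5-fold, enterocyte-like over crypt-like gave 1, 1 and 2 lower in WT, *LApc* and *LApcL*. In enterocyte-like cells it gave 6 higher and 3 lower (*LApc* over WT), 27 lower (*LApcL* over WT) and 28 lower (*LApcL* over *LApc*), in goblet-like cells 4 higher, then 3 higher and 4 lower, then 10 lower, and in crypt-like cells 3 higher and 2 lower, then 11 lower, then 2 higher and 16 lower. Adenoma-enriched over crypt-like gave 11 higher and 20 lower (*LApc*) and 3 higher and 14 lower (*LApcL*), and *LApcL* over *LApc* in adenoma-enriched cells 1 higher and 14 lower.

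TMM scaling moved each log2 ratio by between −0.34 (adenoma-enriched over crypt-like in *LApc*) and 0.32 (enterocyte-like over crypt-like in *LApc*), and median-of-ratios scaling by between −0.26 and 0.35. Under TMM, *LApcL* over *LApc* gave 1 higher and 7 lower in goblet-like cells and 1 higher and 1 lower in adenoma-enriched cells, *LApcL* over WT 0 higher in crypt-like cells, and adenoma-enriched over crypt-like 1 higher in *LApc*. Under median-of-ratios scaling, *LApcL* over *LApc* gave 1 higher and 7 lower in goblet-like, 1 lower in crypt-like and 1 lower in adenoma-enriched cells, *LApcL* over WT 0 higher in crypt-like cells, and adenoma-enriched over crypt-like 1 higher in *LApc*. Of the calls over all genes, the share that was higher moved from 51.8% to 61.7% (TMM) and 65.4% (median of ratios) for enterocyte-like over crypt-like in WT, from 45.3% to 67.4% and 69.1% in *LApc* and from 60.5% to 74.6% and 71.5% in *LApcL*. It moved from 45.5% to 33.3% and 29.6% for *LApcL* over *LApc* in enterocyte-like cells, from 73.6% to 36.3% and 45.6% (*LApcL* over WT) and from 64.2% to 27.9% and 28.3% (*LApcL* over *LApc*) in goblet-like cells, from 7.2% to 20.5% and 10.7% in adenoma-enriched cells, and from 77.2% to 56.8% and 64.2% for adenoma-enriched over crypt-like in *LApc*.

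Without integration, the ratio of *LApc* over WT in enterocyte-like cells reversed for *Cyp3a11* (−0.17) and *Cyp3a13* (−0.038), with 0 higher and 5 lower, and *LApcL* over WT gave 21 lower there. Also without integration, 0 were higher for *LApc* over WT in goblet-like cells, 1 for *LApcL* over *LApc* in goblet-like cells, and 0 for *LApcL* over *LApc* and *LApcL* over WT in crypt-like cells, where *LApcL* over WT gave 1 lower. Enterocyte-like over crypt-like then gave 0 lower in *LApcL* and 2 lower in WT. With classes by marker score, *LApc* over WT in enterocyte-like cells gave 0 higher and 2 lower, and in goblet-like cells 0 were higher in each comparison, with 1 lower for *LApcL* over WT. With a mitochondrial limit of 10%, 0 were higher for *LApc* over WT in enterocyte-like cells. In cluster 3 alone (added after seeing the data) *LApc* over WT gave 1 higher and *LApcL* over WT 5 lower, and in cluster 4 alone 4 higher and 1 lower, and 19 lower, with 20 lower for *LApcL* over *LApc*. With each cell weighted equally, *LApcL* over *LApc* gave 7 lower in adenoma-enriched and 6 in goblet-like cells, and enterocyte-like over crypt-like 2 lower in *LApcL*. Without ribosomal and mitochondrial genes in the total, *LApcL* over *LApc* gave 6 lower in adenoma-enriched cells, *LApcL* over WT 2 higher in goblet-like cells, adenoma-enriched over crypt-like 19 lower in *LApc* and 12 in *LApcL*, and enterocyte-like over crypt-like 2 lower in *LApcL* and 1 in WT.

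In enterocyte-like cells the members' share of UMIs (WT, *LApc*, *LApcL*) was 0.966%, 1.03% and 0.555% under TMM, 0.914%, 1.00% and 0.525% under median-of-ratios scaling, 1.11%, 0.948% and 0.619% by marker score, 0.959%, 1.02% and 0.595% with cells weighted equally, 0.878%, 0.851% and 0.520% at the mitochondrial limit of 10%, 1.25%, 0.854% and 0.576% without integration, 0.964%, 0.978% and 0.568% at resolution 0.4, and 1.24%, 1.27% and 0.792% without ribosomal and mitochondrial genes. *LApcL* had the lowest share under each of these.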

Other observations

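Of the retinaldehyde dehydrogenases, 3 members were looked at in adenoma-enriched cells after their values were seen, and none was called against crypt-like cells. *Aldh1a3* had 5.99 CPM in the adenoma-enriched cells of *LApc* and 2.99 in those of *LApcL*, against 0.252 and 0.234 in crypt-like cells. *Aldh1a2*, of the same group, had 7.41 and 0.429 CPM against 0.189 and 0, and *Aldh1a1* 13.1 and 2.26 against 20.7 and 4.33. The values of *Aldh1a3* and *Aldh1a2* lay above those of crypt-like cells and the values of *Aldh1a1* below them. The retinoic acid receptor gene *Rarb*, which is no member, had 13.8 CPM in adenoma-enriched and 0.378 in crypt-like cells of *LApc*, where it was called higher.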
